A study of Mus musculus with 8 samples.

Results

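A group of 6 mouse genes that encode calcium-binding proteins or their relatives were followed in embryonic kidneys: Calb1 (calbindin, the classical calcium buffer of distal tubule and collecting duct epithelium), Calb2 (calretinin), S100g (the small intestinal and renal calbindin), Rgn (regucalcin), Scin (scinderin) and Vsnl1 (visinin-like 1, listed here as a gene of the bud tip). The members were the non-control probes whose RefSeq accession belongs to these 6 genes, which gave 9 of the 41174 probes on the array and 6 of 32665 genes or unnamed transcripts. The genes were chosen by their mutant to wild type ratios on these same arrays, together with what is known of their families, so the ratios of the 6 genes are given as a description and without a test. Kidneys labelled mutant (UB HDAC1,2-/-), in which a pair of histone deacetylases is deleted in the ureteric bud, the epithelium from which the collecting ducts grow, were set against kidneys labelled wild type. Both were dissected at E13.5 on a CD1 C57BL/6 mix background, and each of 4 biological replicates joined 1 RNA of each genotype on 2 two-colour arrays with the dyes exchanged. The promoter that drives the deletion and the number and sex of the embryos behind each RNA are not given in the sources used here.

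Most calcium-binding proteins of the cytosol bind the ion through EF-hands, helix-loop-helix folds that occur in pairs. Calbindins act mainly as buffers and carriers, and in the kidney they are known for shuttling calcium through the cell between the entry channel on the luminal side and the pump and exchanger on the blood side. Vsnl1 belongs to the neuronal calcium sensors, EF-hand proteins that move to membranes when calcium rises. Regucalcin has no EF-hand and is a gluconolactonase of the vitamin C pathway in mice, and scinderin severs actin filaments in a calcium-dependent way. Calb1 is widely used as a marker of the ureteric bud in the embryonic kidney.

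Ratios below are log2 values of labelled mutant over labelled wild type RNA, from the processed signals of the scanner software, averaged over both dye orientations of a replicate. The sign follows the dye labels and goes against the authors' deposited table, whose ratios have the opposite sign for 266 of its 266 entries that have 1 spot on the array. The authors' deposited table names no genotype on top, so every "higher" and "lower" here would turn if it is written as mutant over wild type. The authors' deposited table holds 12 entries of 3 of the 6 genes: Calb1 at -0.826 to -0.685 in 10 entries, Scin at -0.95 and Rgn at -1.508. All 12 of these entries match the sign-turned mean of a spot over the 8 arrays within 0.01. Calb2, S100g and Vsnl1 have no entry in the authors' deposited table.

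Of the non-control spots on an array, 82.1% to 95.9% stood well above background for the labelled mutant RNAs and 79.2% to 97.1% for the labelled wild type RNAs, and no spot was saturated. Replicate 2 stood apart: 2593 of 31178 genes were at least 2-fold lower and 584 at least 2-fold higher in its labelled mutant RNA, against 55 to 321 lower and 49 to 62 higher in the other replicates. Replicates 1 and 2 lay on 1 slide and replicates 3 and 4 on the other. All 10 defining genes of the embryonic kidney, among them Pax2, Six2, Foxd1 and Ret, were well above background in both channels of all 8 arrays. Hdac2, the deleted gene that was measured, had ratios of 0.60, 0.60, 0.74 and -0.61 in replicates 1 to 4 and so did not show the labelled loss, in RNA of the whole organ. Hdac1 was not analysed here.

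Rgn, Scin and Calb1 were higher in the RNA labelled mutant in all 4 replicates, at 2.85-fold, 1.93-fold and 1.72-fold. S100g, Calb2 and Vsnl1 lay near 0, with mean log2 ratios of 0.22, 0.08 and -0.16. Thus 3 of the 6 genes were at least 1.4-fold higher, against 0.962% of all genes, and 0 were at least 1.4-fold lower, against 2.32%. By limma over all 31178 genes, 0 of the 6 passed an adjusted p of 0.05, against 0.00962% of all genes (0.00641% higher and 0.00321% lower, 3 genes in all, with 1793 at an unadjusted p under 0.05). The 3 that passed, named because they are so few, were Fxyd4 (a collecting duct subunit that tunes the sodium pump) at 1.73 ± 0.15 and an unnamed transcript at 1.55 ± 0.14, both higher, and BC048679 at -2.90 ± 0.27 (SD, n = 4 each). As the ratios of the 6 genes guided their choice, these shares are no evidence about them. The RNA is from whole kidneys, so more cells of a type and more RNA per cell cannot be told apart.

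**Figure D1:**
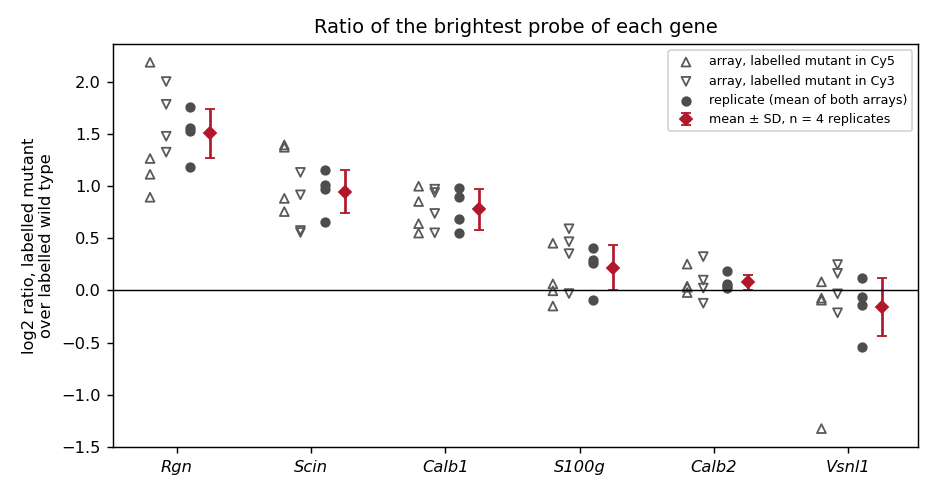
Log2 ratios of the labelled mutant over the labelled wild type RNA for the brightest probe of each gene (vertical axis), on each of 8 arrays (open triangles, by dye), in each of 4 replicates (filled points) and as mean ± SD over the 4 replicates (diamonds). Rgn, Scin and Calb1 lie above 0 on 8 of 8 arrays, while S100g, Calb2 and Vsnl1 spread around 0, and 1 array of replicate 2 puts Vsnl1 at -1.33.

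Calb1 had processed signals, in arbitrary units, of 26449, 13031, 31427 and 23817 in the labelled mutant RNAs of replicates 1 to 4, against 16389, 8887, 15858 and 12788 in the labelled wild type RNAs. Both RNAs of replicate 2 were the dimmest of their group, and the labelled mutant RNA of replicate 2 lay inside the wild type range, so the groups overlapped although the mutant channel was the brighter in every pair. Signals are not scaled between arrays, and the part of array brightness in this and the overlaps given below was not tested. The log2 ratios were 0.69, 0.55, 0.99 and 0.90, with a mean of 0.78 ± 0.20 (SD, n = 4). The ratio was higher on the second slide, at 0.94, than on the first, at 0.62, and the part of the slide in this was not tested. Dye orientation made little difference, with 0.76 ± 0.20 with the labelled mutant in Cy5 and 0.80 ± 0.19 with it in Cy3 (SD, n = 4 arrays each).

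The Calb1 probe is printed 10 times on each array, which shows the spread between spots of an array. Labelling and hybridisation are shared by these spots, so their error is not in this spread. Across the 8 or 10 spots of an array that were not outliers, the SD of the log2 ratio was between 0.02 and 0.29, and the widest range, from 0.03 to 0.93, was on the dim array of replicate 2 with the labelled mutant in Cy5. None of the spots used lay below 0 on any array.

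Rgn showed the largest ratio of the 6. Its signals were 315, 222, 418 and 338 in the labelled mutant RNAs of replicates 1 to 4 and 138, 65.5, 142 and 117 in the labelled wild type RNAs. The lowest mutant value lay above the highest wild type value. Rgn was the only one of the 6 genes whose groups did not overlap, against 0.443% of all genes with the mutant higher and 0.337% with it lower. This sets signals of different arrays side by side without their pairing. The median signal of the labelled mutant RNA ran from 272 to 546 between arrays, both in replicate 2. The log2 ratios were 1.19, 1.76, 1.56 and 1.53, with a mean of 1.51 ± 0.24 (SD, n = 4), the fifth highest of the 31178 genes. With normexp at an offset of 50 and loess, which changes the background correction and the normalization together, the mean was 0.88 ± 0.08 (SD, n = 4). That SD is over replicate means. Single arrays ran from 0.22 to 1.45 with this setting, both in replicate 3, against 0.90 to 2.19 with the scanner ratios. The wild type signal of this gene is low, between 41.0 and 170 on single arrays, though well above background on all 8. The orientations gave 1.37 ± 0.57 with the labelled mutant in Cy5 and 1.65 ± 0.30 with it in Cy3 (SD, n = 4 arrays each).

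Rgn and S100g lie on the X chromosome, and the sex-linked genes had ratios away from 0 in several pairs. Xist, the RNA of the inactive X, had log2 ratios of 0.78, -0.13, 0.14 and 1.18 in replicates 1 to 4, and the Y-linked Eif2s3y -0.92, -0.42, -0.30 and -0.70. Uty, also Y-linked, averaged -0.65 ± 0.35 (SD, n = 4) on its brightest probe and -0.17 on the other. Ddx3y and Kdm5d, Y-linked as well, averaged -0.42 ± 0.68 and -0.46 ± 0.73 (SD, n = 4 each), and in replicate 2 they stood at 0.55 and -1.55. The part of embryo sex in the ratios of Rgn and S100g was not tested.

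Scin had signals of 446, 292, 602 and 482 in the labelled mutant RNAs, against 221, 149, 270 and 306 in the labelled wild type RNAs. The groups overlapped because the labelled mutant RNA of replicate 2 lay just under the wild type RNA of replicate 4. Within pairs the mutant channel was the brighter on 8 of 8 arrays. The log2 ratios were 1.01, 0.98, 1.16 and 0.66, with a mean of 0.95 ± 0.21 (SD, n = 4). With normexp at an offset of 50 and loess the mean was 0.68 ± 0.10 (SD, n = 4), and single arrays ran from 0.27 to 1.00. The slides gave 0.99 and 0.91.

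**Figure D2:**
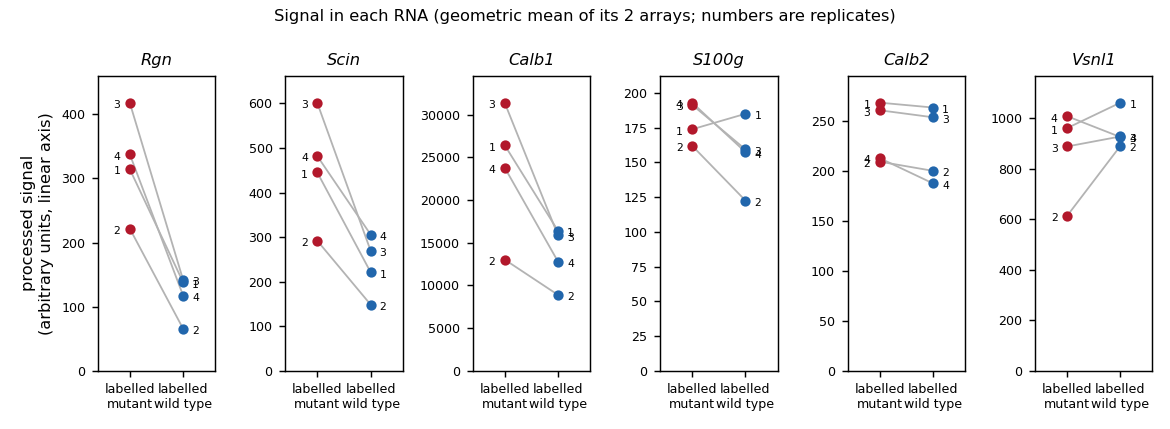
Processed signal (vertical axes from 0, arbitrary units) of the brightest probe of each gene in the 4 labelled mutant and the 4 labelled wild type RNAs, each the geometric mean of its 2 arrays, with lines joining the RNAs of a replicate. The lines of Rgn, Scin and Calb1 all run downward from mutant to wild type, those of Calb2 are almost flat, and the mutant RNA of replicate 2 is the lowest for all 6 genes. Signals are not scaled between arrays, so only RNAs joined by a line compare directly.

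S100g had signals of 174, 162, 191 and 193 in the labelled mutant RNAs and 185, 122, 159 and 157 in the labelled wild type RNAs. The groups overlapped, and replicate 1 was lower in the mutant RNA while the other replicates were higher. The log2 ratios were -0.09, 0.40, 0.27 and 0.29, with a mean of 0.22 ± 0.21 (SD, n = 4). With normexp at an offset of 50 and loess the mean was 0.06. With Cy3 on the labelled mutant RNA it was 0.35, and with Cy5 on it 0.09.

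For Scin and S100g, a gene that stood higher in the mutant RNA and one near 0, the 250 bases before the RefSeq start site (GRCm38.p6, minus strand for both) are shown so that the letters near their starts can be compared. The promoter table holds 3 of the 6 genes, which are Scin, S100g and Vsnl1. Capitals mark matches on either strand, a match on the reverse strand being printed as its complement read along the shown strand. The search covered the GC box with the letters GGGCGG. It covered the core of nuclear receptor sites, such as those of the vitamin D receptor, with the letters AGGTCA. It also covered the TATA box as TATAAA and the CCAAT box, whose letters are its name.
Scin, chr12:40134229-40134478: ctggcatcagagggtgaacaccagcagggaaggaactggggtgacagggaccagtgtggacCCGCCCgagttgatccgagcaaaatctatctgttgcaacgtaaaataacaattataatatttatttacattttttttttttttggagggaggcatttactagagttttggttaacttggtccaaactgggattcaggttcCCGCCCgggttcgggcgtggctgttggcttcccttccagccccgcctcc
S100g, chrX:162964600-162964849: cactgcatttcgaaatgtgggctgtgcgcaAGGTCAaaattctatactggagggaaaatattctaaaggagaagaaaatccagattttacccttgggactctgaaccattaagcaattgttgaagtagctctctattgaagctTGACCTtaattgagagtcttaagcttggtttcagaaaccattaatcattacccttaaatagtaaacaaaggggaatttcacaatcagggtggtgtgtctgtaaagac

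The Scin window holds GGGCGG on the reverse strand, 189 and 49 bases before the start, and none of the other motifs. The S100g window holds AGGTCA 220 bases before the start and, on the reverse strand, 107 bases before it, and none of the others. Vsnl1, with a mean log2 ratio of -0.16, has windows that are not printed here. A Vsnl1 window holds GGGCGG 80 bases and CCAAT 239 bases before its start. The window at another Vsnl1 start holds CCAAT on the reverse strand, 214 bases before it. The GC box letters were thus not limited to the gene that stood higher. Of 32851 mouse promoter windows of this length, 32.7% hold the GC box letters and 14% the nuclear receptor core. The CCAAT box is in 33.8% of them and the TATA box in 12.4%. A match describes these letters and is not a binding site.

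Calb2 was measured by 3 probes that gave different pictures. The brightest had signals of 268, 209, 261 and 213 in the labelled mutant RNAs and 263, 200, 254 and 187 in the labelled wild type RNAs. Its log2 ratios of 0.03, 0.07, 0.04 and 0.18 were all just above 0 (mean 0.08 ± 0.07, SD, n = 4), as were those of 10.8% of all genes in 4 of 4 replicates, while 5.48% were below 0 in all 4. The 4 of the 6 genes above 0 in every replicate were Rgn, Scin, Calb1 and Calb2 by this probe. The second probe, printed 10 times per array, had ratios of 0.82, -2.74, -0.16 and 0.09. On that probe the labelled wild type RNA of replicate 2 reached 182, against 23.8 to 30.4 in the other wild type RNAs, and the mutant RNAs lay between 25.3 and 53.5. Both dye orientations of replicate 2 showed it, at -2.52 and -2.97, and the brightest probe did not. Replicate 2 is also the replicate in which 2593 genes were at least 2-fold lower and 404 at least 4-fold lower. Irak4 and Rhag, among the genes nearest to this probe over the 4 replicate ratios, stood at -2.9 and -2.7 in replicate 2. The part of this wider drop in the Calb2 value was not tested. The third probe was not well above background in either channel on any array.

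**Figure D3:**
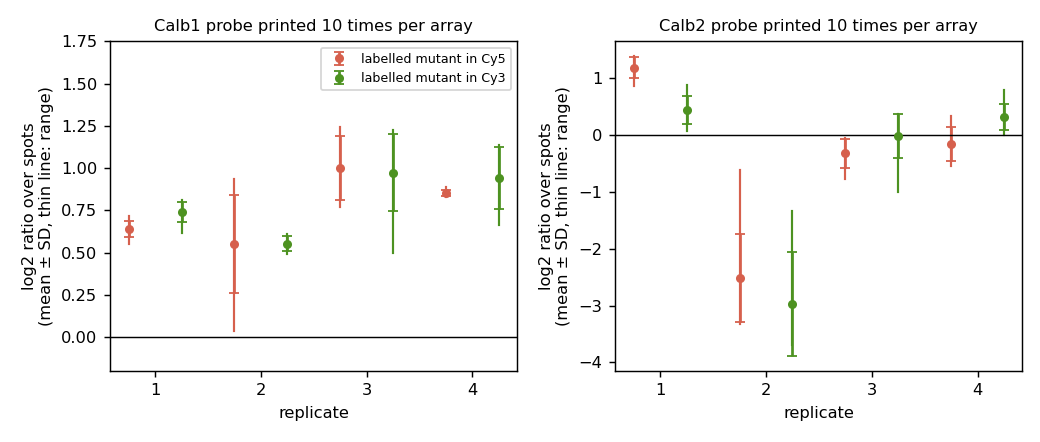
Log2 ratio over the spots of the Calb1 probe and of the Calb2 probe that are printed 10 times per array (vertical axes, mean ± SD, thin lines for the range, outlier spots left out), by replicate and dye orientation. Calb1 spots lie above 0 on every array, while the Calb2 probe drops to -2.52 and -2.97 in replicate 2 alone.

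Vsnl1, with signals of 961, 613, 888 and 1008 in the labelled mutant RNAs and 1062, 890, 928 and 925 in the labelled wild type RNAs, showed no steady direction. The groups overlapped, and the low mutant value of replicate 2 came from 1 array. There the log2 ratio was -1.33, against 0.25 on the array of the same RNAs with the dyes exchanged. The replicate ratios were -0.14, -0.54, -0.06 and 0.12, with a mean of -0.16 ± 0.28 (SD, n = 4), and the mean was -0.03 without replicate 2. A second probe of Vsnl1 averaged -0.06 ± 0.17 (SD, n = 4).

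Genes that work with the calbindins in calcium transport had ratios on both sides of 0. In these lists the 6 genes are counted where they belong to them. Of 16 genes of transcellular transport and its hormones, 15 were measured, with 6 above 0 and 9 below (median log2 ratio -0.05), 0 passing over all genes, against 16477 of 31178 genes above 0 and a median of 0.01 over all genes. Vdr, the vitamin D receptor that in mice drives calbindin genes, had the largest difference of this list and ran opposite to Calb1, at -1.02, -0.94, -0.81 and -1.18 in replicates 1 to 4 (mean -0.99 ± 0.16, SD, n = 4). Its mean signal was 127 in the labelled mutant RNAs and 252 in the labelled wild type RNAs, and it did not pass over all genes. Trpv6, the calcium entry channel, which was singled out after its values were seen, had ratios of -0.15 and -0.13 on the first slide and of 0.60 and 0.56 on the second. The gene of the other entry channel, Trpv5, averaged -0.05 ± 0.19 (SD, n = 4).

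Other EF-hand families had median log2 ratios between -0.01 and 0.16, against 0.01 over all genes. Of 11 measured buffers of the calbindin group 5 were above 0 (median log2 ratio -0.01). Apart from Calb1, S100g and Calb2, Scgn (secretagogin) stood at 0.33 ± 0.21, with a signal above background on 4 of 8 arrays in the mutant RNA and 5 in the wild type RNA, and Necab2 at -0.08 ± 0.07 (SD, n = 4 each). The 12 measured neuronal calcium sensors, with Vsnl1 among them, were split 6 to 6. Guca1a stood at -0.27 ± 0.17, with a signal above background on 5 of 8 arrays in each RNA. Hpcal1 stood at -0.14 ± 0.12, with its other probe at 0.06. Of 6 calmodulin genes 5 were above 0 (median 0.16), with Calml4 at 0.56 ± 0.43 and Calml3 at 0.38 ± 0.16. The median of these genes was 0.08, 0.45, 0.14 and 0.03 in replicates 1 to 4, so it was largest in replicate 2. Of 15 genes listed with the S100 family 10 were above 0 (median 0.09), with S100a16 at 0.45 ± 0.45 and S100a1 at 0.31 ± 0.33. The list counts S100pbp, at 0.08, which is not itself an S100 protein. Its median was 0.04, 0.40, 0.07 and 0.08 in replicates 1 to 4. None of the genes in these 4 lists passed over all genes.

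The families of Scin and Rgn also held ratios on both sides of 0. Among 8 gelsolin family genes 5 were above 0 (median log2 ratio 0.06). Gsn, gelsolin itself, stood at -0.41 ± 0.35, and Capg, an actin-capping member, at 0.38 ± 0.19 (SD, n = 4 each). Of 11 genes around the gluconolactone step 7 were above 0 (median 0.09), with Gusb (beta-glucuronidase) at 0.22 ± 0.23, H6pd at 0.13 ± 0.07, whose other probe stood at 0.08, and Gulo, the last enzyme of vitamin C synthesis in mice, singled out after its value was seen, at -0.03 ± 0.20 (SD, n = 4 each). Of 9 calcium-binding genes of the secretory pathway 4 were above 0, with Casq1 (calsequestrin) at 0.43 ± 0.37 and Calr (calreticulin) at 0.40 ± 0.32, whose other probe stood at -0.45. Casq1 was above background on 6 of 8 arrays in the mutant RNA and 7 in the wild type RNA. None of these 3 lists had a gene that passed over all genes.

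**Figure D4:**
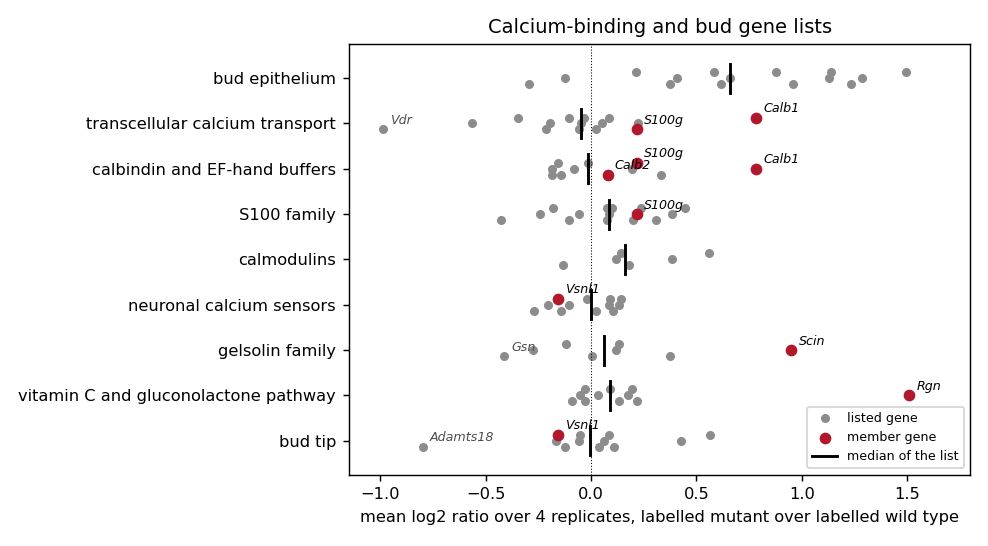
Mean log2 ratio over 4 replicates (horizontal axis) of the measured genes of 9 lists, with the 6 calcium-binding genes in red and the median of each list as a bar. Scin, Rgn and Calb1 lie to the right of the other genes of their calcium and enzyme lists, the bud epithelium genes have a median of 0.66, and Vdr lies at the far left at -0.99.

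Among the 5 genes nearest to Calb1 over the 4 replicate ratios, by Euclidean distance over the 17112 named genes, were Fam149a, Lypd6b, Hkdc1 (a hexokinase family member) and Scnn1g (the gamma subunit of the epithelial sodium channel), at distances of 0.19, 0.218, 0.218 and 0.219. Scnn1g had ratios of 0.52, 0.45, 0.93 and 0.83, higher in replicates 3 and 4 than in 1 and 2, as was Calb1. These genes were picked by distance over the same ratios, so such a likeness is part of the choice and no evidence of a link. Those nearest to Rgn were Shh (the hedgehog ligand), Fxyd4, Cdh16 (the kidney cadherin), Elf5 (an epithelial transcription factor) and Mia, at distances of 0.408, 0.485, 0.538, 0.668 and 0.718. Their means ran from 1.18 for Mia to 1.73 for Fxyd4, and that of Shh was 1.53 ± 0.29 (SD, n = 4). Few genes have ratios of this size, so closeness here rests mainly on the size of the ratio and on 4 replicates.

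**Figure D5:**
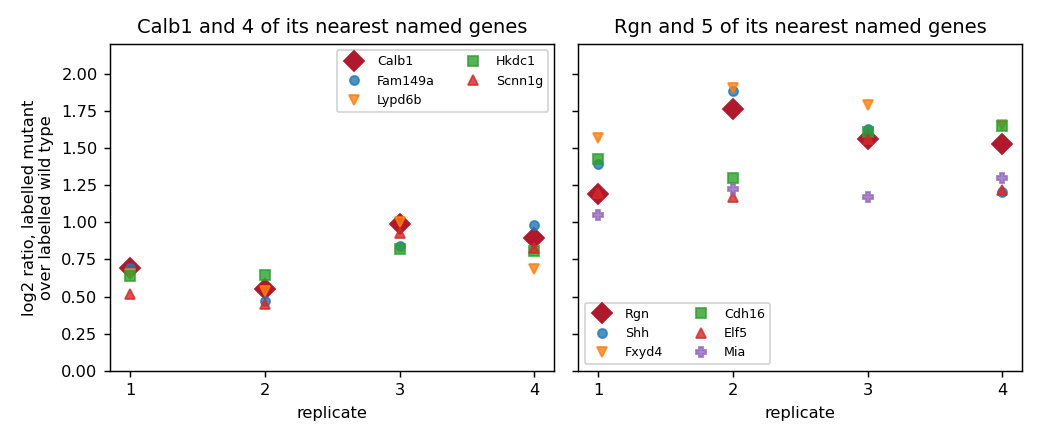
Log2 ratios in replicates 1 to 4 (vertical axis) of Calb1 and 4 of its 5 nearest named genes on the left and of Rgn and its 5 nearest on the right. The Calb1 group lies between 0.45 and 1.00, higher in replicates 3 and 4, and the Rgn group between 1.05 and 1.91. The genes were picked by closeness over these ratios, so a like course is part of the choice.

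Most epithelial genes of the bud stood above 0, as Calb1, Rgn and Scin did, none of which is in this list. Of 15 bud epithelium genes 13 were above 0 and 2 below (median log2 ratio 0.66), and 13 were above 0 in 4 of 4 replicates, against 10.8% of all genes. The list was chosen with earlier results of these data known, so these counts describe it and are no evidence about it. The median was 0.65, 0.63, 0.79 and 0.81 in replicates 1 to 4, led by Cdh16 at 1.50 ± 0.16 and Elf5 at 1.29 ± 0.18 (SD, n = 4 each), and none of the 15 passed over all genes. The summed signal of the list was 52030 to 93870 in the labelled mutant RNAs, against 35130 to 44430 in the labelled wild type RNAs. The part of bud cell number in the ratios of Calb1, Rgn and Scin was not tested. The 12 bud tip genes, with Vsnl1 among them, were split 6 to 6 (median -0.01), with Adamts18 at -0.80 ± 0.07 and Wnt11 at 0.42 ± 0.20 (SD, n = 4 each).

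Neighbouring tissues could also hold these transcripts, since Calb2 is known from neurons and mesothelium and Scin from chromaffin cells. Of 10 measured adrenal and chromaffin genes 6 were above 0 (median log2 ratio 0.01), with summed signals of 7479 to 9862 in the labelled mutant RNAs and 7429 to 12980 in the labelled wild type RNAs, and 7 of the 10 were well above background on all arrays. The 8 mesothelial and gonadal genes had a median of 0.14, with sums of 1730 to 2420 in the labelled mutant RNAs and 1650 to 2332 in the labelled wild type RNAs, and Msln (mesothelin) at 0.88 ± 0.28 and Amh at 0.39 ± 0.28. Of 8 neuronal genes 7 were below 0 (median -0.24), with sums of 4360 to 6549 in the labelled mutant RNAs and 4960 to 8488 in the labelled wild type RNAs. Stmn2 stood at -0.71 ± 0.33 and Dcx at -0.45 ± 0.33, with another Dcx probe at -0.11. Of 8 macrophage genes 7 were below 0 (median -0.34), with sums of 4279 to 6002 in the labelled mutant RNAs and 6018 to 6857 in the labelled wild type RNAs. Cx3cr1 was at -0.49 ± 0.20, with its other probe at -0.19, and Ptprc at 0.53 ± 0.40 on its brightest probe and down to -0.67 on others (SD, n = 4 each). Of the 10 kidney identity genes 2 were above 0 and 8 below (median -0.08), with Ret at -0.05, which was singled out after its value was seen. Gata3 of the bud stood at 0.41 ± 0.30 and Wt1 of the nephron lineage at -0.29 ± 0.11 (SD, n = 4 each). The part of these cell types in the ratios was not tested.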

How the data were processed

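Per the file headers, Agilent arrays in 2 colours were read by the authors with Feature Extraction 10.5.1.1. The deposited log10 ratio of a spot is red (Cy5) over green (Cy3) processed signal. The deposited intensity columns hold background-subtracted, dye-normalized signals and the unnormalized medians of spot and background. The deposited flags for outliers and background are 0 or 1. A list of 496 entries, each with a log2 ratio of unstated direction, is the authors' deposited table, selected with MeV 4.9 per its title. Per the labels, 0.5 µg of total RNA was labelled.

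These scanner ratios, used because the choice of the genes names them, were turned to log2 of labelled mutant over labelled wild type, outlier spots were left out, spots of a probe were averaged, and then the 2 arrays of a replicate. Probes had to be well above background on 4 or more of the 8 arrays, in either channel (39515 of 41174, and 8 of the 9 probes of the 6 genes, passed). Symbols came from RefSeq (GRCm38.p6) for 25097 probes. The brightest probe stood for a gene. Replicate ratios were tested against 0 with limma 3.58.1 in R 4.3.3 (lmFit, eBayes, Benjamini-Hochberg at 0.05, two-sided), checked on simulated data. Signals are scaled within arrays, not between them, so ratios rather than signals compare across replicates. Precision is limited by the number of replicates, which is 4, as the 2 arrays of a replicate share their RNAs. The labels call the replicates biological without naming litters or animals.

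The 6 genes and all lists were chosen with earlier results of these data known. Named from each list were genes that passed or, if none did, up to 2 with the largest mean of 1 sign in 4 of 4 replicates, the 6 genes aside, and the 5 named genes nearest to Calb1 and to Rgn, of which 1 is not reported here. The RNAs of a replicate share their arrays: the deviations of the 2 RNAs of a replicate from their group means correlated across genes at 0.582 to 0.785, and each labelled mutant RNA correlated best with its partner. The ratio keeps this pairing. Alternatives covered background correction, centring, dye, slide, pairing, filters and left-out replicates.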

Additional observations from a re-analysis of the deposited data

Results flagged for a closer look

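Of the 47 sets of 4 replicate ratios behind the named genes and probes, 4 held a replicate far from the other 3 by Dixon's criterion, where chance gives about 1 in 20. Hdac2 was at -0.61 in replicate 4, against 0.60 to 0.74 in the others. Scgn, near background, was at 0.64 in replicate 2, against 0.18 to 0.26. Amh was at 0.81 in replicate 2, against 0.21 to 0.30, and Elf5 at 1.56 in replicate 3, against 1.17 to 1.21. None of the 6 calcium-binding genes was among them.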

How the results depend on the processing

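Over 15 alternatives, Calb1 kept a log2 ratio above 0, from 0.62 (slide 1 only) to 0.94 (slide 2 only), and Rgn and Scin stayed above 0 in all 15. Many of these could not have come out otherwise. The replicate block, the slide block and the median over probes return the main mean for genes with 1 probe. As these genes lay above 0 on all 8 arrays, subsets by dye, slide or replicate could not change the sign. With normexp at an offset of 50 and loess, Rgn was 0.88, Scin 0.68, S100g 0.06 (0.22 in the report) and Calb2 -0.032. At an offset of 16, Rgn was 1.00, S100g 0.07 and Calb2 -0.034. With the median over its probes Calb2 was -0.21. The cause of these shifts was not tested. Vsnl1 was above 0 only with the labelled mutant in Cy3 (0.04) and on slide 2 (0.03). Leaving out each replicate gave 0.71 to 0.86 for Calb1, 1.43 to 1.62 for Rgn and 0.88 to 1.05 for Scin.

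The count of genes that passed over all genes was unstable. It was 2 higher and 1 lower, but 0 and 0 with normexp at either offset, on slide 1 alone and without a filter on dim probes. It was 1 and 1 with median centring, 0 and 1 with the labelled mutant in Cy5, 17 and 5 with it in Cy3, 159 and 562 on slide 2 alone, 4 and 1 with the median over probes, 10 and 1 when well above background in both channels on all arrays, and 0 and 1 with the slide as a block. With the 8 arrays as observations and the replicate as a block (consensus correlation 0.283) it was 80 and 27, with Calb1, Rgn and Scin among them, and without the pairing, in separate channels, 0 and 1. Leaving out each replicate gave 0 to 10 higher and 0 to 1 lower, the highest without replicate 2. Calb1, Rgn and Scin also passed on slide 2 alone, which holds only replicates 3 and 4, and Rgn without replicate 2, with the labelled mutant in Cy3 and under the stricter filter. Their ratios guided the choice of these genes, so no pass named here is evidence about them. The third Calb2 probe, not well above background on any array, was left out of the fits that filter dim probes.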
